A study of Mus musculus with 8 samples.

Results

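The drug and organic ion transporter genes of the mouse were followed in bulk ATAC-Seq peak lists of hepatocytes, taken as every protein-coding gene of GENCODE M21 (mm10) whose symbol begins with Slc22a, with Slco and a digit, or with Abca to Abcg and a digit, leaving out Abcb11, the bile salt export pump. This gave 88 of 21938 protein-coding genes, of which 25 were Slc22a, 14 Slco, 16 Abca, 9 Abcb, 10 Abcc, 4 Abcd, 1 Abce, 3 Abcf and 6 Abcg. The mice are labelled C57BL/6 (C57BL/6J males in the published methods) and aged 10-12 weeks, while those methods place surgery at a slightly younger age, and hepatocytes came from undamaged livers (0 h) or from livers 48, 72 or 96 h after partial hepatectomy (PHx), an operation that takes away some of the liver lobes, with 2 libraries at each time. ATAC-Seq uses the Tn5 transposase to cut and tag open chromatin, and the deposited files list the intervals called as open in each library. No sham-operated group was analysed here, so surgery and time cannot be told apart from regeneration.

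The Slco genes encode organic anion transporting polypeptides and the Slc22a genes encode organic cation, anion and zwitterion transporters, and in hepatocytes a few of each draw bile acids, drugs and hormones out of portal blood. ATP-binding cassette (ABC) proteins use ATP to move substrates the other way: some pump conjugates, phospholipid and sterols into bile, some return conjugates to blood, others work in mitochondria, peroxisomes and lysosomes, and the Abce and Abcf proteins act in translation and move nothing across membranes. The expression of hepatic transporters is known to depend on liver-enriched factors such as HNF1 and HNF4 and on nuclear receptors that sense bile acids and drugs.

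Abcb1b and Abcg2 ranked higher at 48 h, Abcb4 ranked lower, and Slco1b2 and Abcc2 are typical hepatocyte transporters, Abcc2 with weak promoter intervals. Sequences upstream of these 5 starts are shown because the results below turn on their promoters. Each is the 250 bases before the RefSeq start on GRCm38.p6, plus strand, 5′ to 3′, at chr5:8797897-8798146 for Abcb1b, chr5:8893471-8893720 for Abcb4, chr6:58640296-58640545 for Abcg2, chr6:141629268-141629517 for Slco1b2 and chr19:43782058-43782307 for Abcc2. Capitals mark matches on either strand to the letters TTGCNNAA (C/EBP), GTTAATNAT (HNF1), TGACNNNGC (antioxidant response element), AGGTCA (nuclear receptor), GGGCGG (GC box), CCAAT and TATAAA.
Abcb1b: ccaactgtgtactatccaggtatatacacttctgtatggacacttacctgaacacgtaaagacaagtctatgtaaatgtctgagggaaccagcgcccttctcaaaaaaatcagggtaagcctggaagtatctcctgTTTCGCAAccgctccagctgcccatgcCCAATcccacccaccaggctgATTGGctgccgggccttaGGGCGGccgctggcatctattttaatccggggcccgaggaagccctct
Abcg2: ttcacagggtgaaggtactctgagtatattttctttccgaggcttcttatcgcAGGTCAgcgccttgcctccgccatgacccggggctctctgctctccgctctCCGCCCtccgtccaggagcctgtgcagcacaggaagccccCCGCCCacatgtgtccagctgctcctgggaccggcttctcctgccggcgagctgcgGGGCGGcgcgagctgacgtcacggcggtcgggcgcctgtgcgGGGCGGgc
Abcb4: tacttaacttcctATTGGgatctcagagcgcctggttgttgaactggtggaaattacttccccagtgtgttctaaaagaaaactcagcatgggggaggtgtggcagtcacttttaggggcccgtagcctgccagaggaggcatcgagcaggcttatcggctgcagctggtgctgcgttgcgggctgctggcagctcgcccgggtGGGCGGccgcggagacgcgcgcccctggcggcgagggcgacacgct
Slco1b2: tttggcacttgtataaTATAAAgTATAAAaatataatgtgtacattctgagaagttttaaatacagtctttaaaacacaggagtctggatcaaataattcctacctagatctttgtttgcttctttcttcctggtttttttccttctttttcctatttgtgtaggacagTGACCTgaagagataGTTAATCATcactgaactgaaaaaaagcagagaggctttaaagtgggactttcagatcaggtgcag
Abcc2: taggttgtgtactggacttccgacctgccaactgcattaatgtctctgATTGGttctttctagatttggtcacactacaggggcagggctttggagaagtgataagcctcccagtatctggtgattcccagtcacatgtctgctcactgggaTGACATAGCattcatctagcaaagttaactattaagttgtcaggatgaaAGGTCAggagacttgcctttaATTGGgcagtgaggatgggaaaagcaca

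The upstream windows differed in kind. Abcg2 held 4 GC boxes and Abcb1b and Abcb4 held 1 each, whereas Slco1b2 and Abcc2 held none; Slco1b2 held the HNF1 letters at position -66 from the start and TATAAA at -234 and -227. Abcb1b held the C/EBP letters at -114 and CCAAT letters at -87 and -66, and Abcc2 held the antioxidant response letters at -98. RefSeq windows matched 71 of the 88 members by symbol. Among these, 35.2% held GGGCGG, 31% CCAAT, 12.7% TATAAA, 11.3% AGGTCA, 11.3% TTGCNNAA, 9.86% TGACNNNGC and 2.82% GTTAATNAT, against 32.7%, 33.8%, 12.4%, 14%, 9.56%, 10.2% and 0.737% of all 32851 windows of the same length. None of the 71 held the HNF4 letters CAAAGTCCA or the AP-1 letters TGANTCA, which 0.384% and 6.75% of all windows held, while the FOXA letters TGTTTAC were in 1.41% against 3.17% and the E-box CACGTG in 9.86% against 6.02%. The 2.82% for HNF1 was 2 members, Slco1b2 and Slc22a29, and the Slc22a29 promoter had no interval in any list. Each member gave 1 window, the nearest to its promoter interval where it had one, whereas the 32851 windows were not so chosen. A match is only that the letters are there.

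In each library the intervals were ranked by their MACS2 p-value, with rank 1 the strongest, and a gene's promoter took the best-ranked interval within 1 kb of any of its transcription start sites (TSS). A promoter is said to rank higher when its rank number is smaller. A promoter was called at a time point when both libraries of that time ranked on the same side of both 0 h libraries, with a promoter that had no interval placed last. With 2 libraries against 2, no exact two-sided permutation test can go below p = 0.333, and with all 6 PHx libraries against 2 none can go below 0.0714, so no test was made and each count of calls is read against the share of all protein-coding genes called in the same way. The 3 times share the same 0 h libraries. Since the lists differ in length, calls were also made on the percentile within the list and on ranks by fold enrichment, and a call on all 3 scales, a rule chosen after seeing the data, is named as such. In bulk chromatin, fewer nuclei with an open site and a less open site in each nucleus cannot be told apart. The libraries of undamaged liver and of the earliest time came from separate hepatocyte preparations, and for the later times the labels give only replicate numbers.

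The lists held 105206 to 154577 distinct intervals, and the -log10 p at rank 50000 lay between 8.05 and 15.2, with the 48 h libraries at 8.05 and 8.62 and the 0 h libraries at 15.2 and 9.96. Of 10 hepatocyte markers, all had a promoter interval in both 0 h libraries, 6 and 8 after 48 h, 9 and 9 after 72 h, and 10 and 9 after 96 h. Among the 50000 strongest intervals were 7 and 9 of the 10 in undamaged liver, 3 and 5 after 48 h, 3 and 5 after 72 h, and 5 and 6 after 96 h. By rank, 9 of the 10 were lower than 0 h at 48 h, 8 at 72 h, 6 at 96 h and 5 across all PHx libraries, next to 28.7%, 30.5%, 19.6% and 7.85% of all protein-coding genes, and 0 were higher. Promoters of Alb and Tat had none in either 48 h library. No lymphocyte marker promoter of 4 was listed in any library, and 0 or 1 of 6 Kupffer cell, 1 to 3 of 6 endothelial, 2 to 5 of 6 stellate and 2 to 4 of 5 cholangiocyte marker promoters were listed per library. Markers in no list included Cd5l, Vsig4, Csf1r, Stab2, Lyve1, Krt19 and Ptprc. Others were in some: endothelial Clec4g ranked 11982 in 48 h library 2 and 12339 in 96 h library 1 and was absent from the other 6, Pecam1 was in 3 lists, and of the Kupffer cell markers Clec4f was in 4 and Adgre1 in 1. Promoters of Epcam, Sox9, Reln, Lrat and Kdr were in every list, with Epcam at ranks 2827 to 29081 and Reln at 2038 to 23627. Of the stellate markers tested, 2 of 3 were higher at 48 h, 1 of 3 at 72 h and 1 of 2 at 96 h, and 0 were lower. All genes called higher were 17.8%, 17.5% and 15.3%. Of the cholangiocyte markers tested, 1 of 3 was lower at 48 h and 1 of 4 at 72 h, and 0 were higher. The part of this shift of hepatocyte markers, of other cell types or of list length in the results below was not tested.

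Most transporter promoters had an interval in every library or in none. Of the 88 members, 56 (63.6%) had a promoter interval in all 8 lists, 19 (21.6%) in none and 13 in 1 to 7, against 60.3% in all and 25.1% in none of all protein-coding genes. By family, all 4 Abcd, all 3 Abcf and the single Abce promoters were in every list, as were 8 of 9 Abcb, 5 of 6 Abcg, 10 of 16 Abca, 9 of 14 Slco and 6 of 10 Abcc, while 12 of 25 Slc22a promoters were in none and 10 in all. The strongest was Abcd4, a lysosomal cobalamin transporter, at ranks 83 and 114 in undamaged liver, 110 and 190 after 48 h, 50 and 90 after 72 h, and 44 and 120 after 96 h. By rank its groups overlapped at every time, while it was called higher by percentile at 72 h and by fold enrichment at 96 h. The median member rank was 40226 and 30516 in undamaged liver and between 29882 and 37870 in the 6 PHx libraries, next to 31081 and 30143 in undamaged liver and 31998 to 34294 after PHx over all protein-coding genes.

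**Figure D1:**
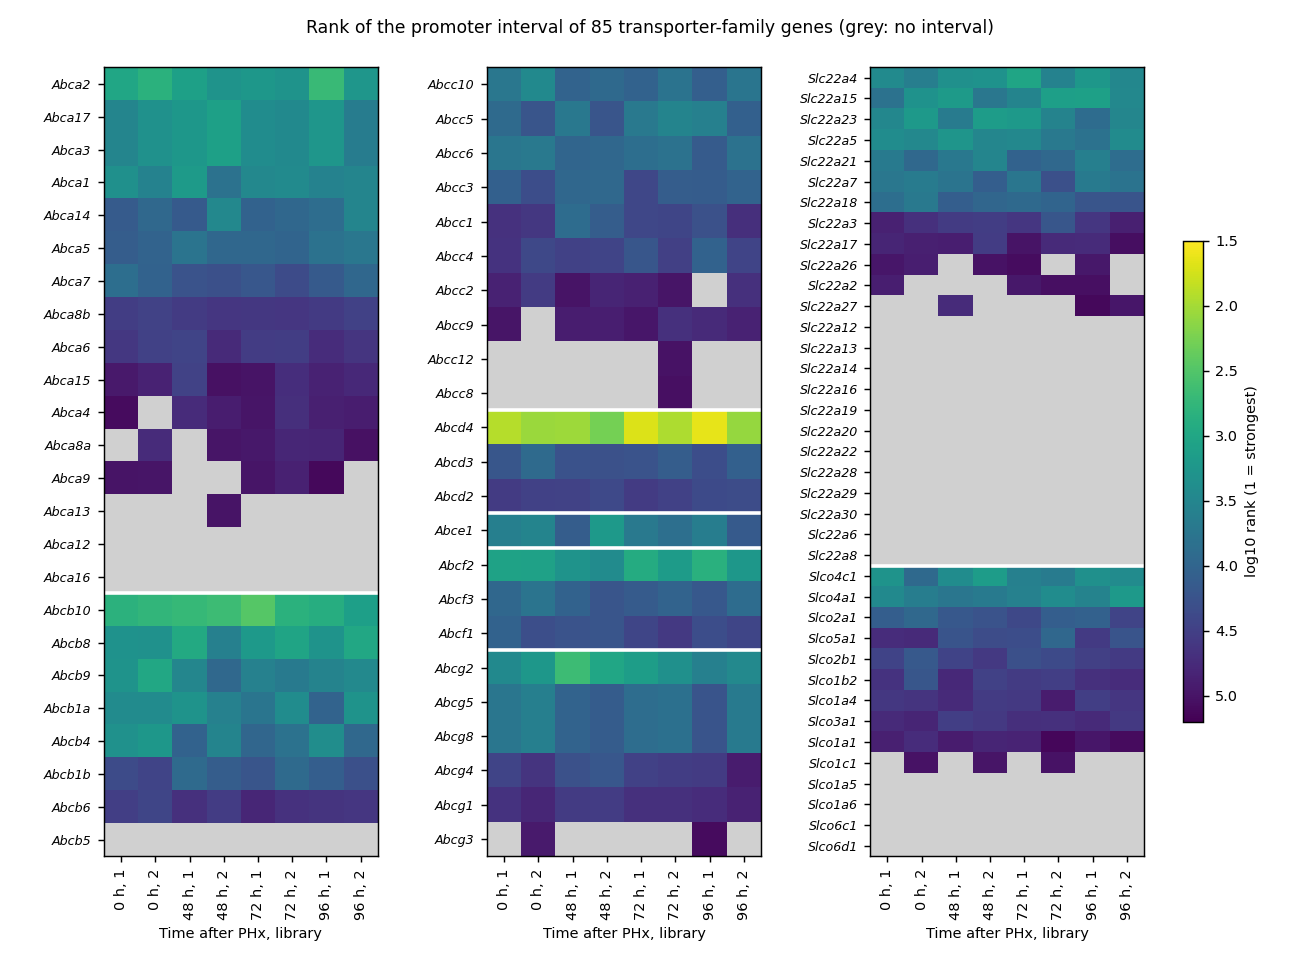
Rank of the promoter interval of 85 members (rows, by family, strongest at the top of each) in the 8 libraries (columns), coloured by log10 rank, with grey for no interval. The Abcd4 row holds the strongest ranks, between 44 and 190, and 12 Slc22a rows are grey in all 8 libraries.

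Some members with no promoter interval lie next to each other in the genome. Joining members no more than 100 kb apart gave 14 groups with 38 members, and 50 stood alone. In the group of 5 Slc22a genes at chr19:7673061-8218900 (Slc22a19, Slc22a26 to Slc22a29) no promoter was in all 8 lists and 3 were in none, and Slc22a6 and Slc22a8, renal organic anion transporters at chr19:8591254-8628299, were in none. By contrast the 3 Slc22a genes at chr11:53864542-54028090 (Slc22a5, Slc22a21 and Slc22a4, carnitine and ergothioneine transporters) and the Abcb1a, Abcb1b and Abcb4 group at chr5:8660077-8959231 were each in all 8. In the 250 bases before the annotated start of the gene, GC content had a median of 59.4% (33.6% to 78.8%) in the 56 members in all lists and 43.6% (26% to 55.6%) in the 19 in none, and the CpG observed to expected ratio a median of 0.66 and 0.22. The same medians over all protein-coding genes were 58.8% and 44% GC and ratios of 0.69 and 0.15, so the medians of members and of all genes were ordered alike. Slco1b2, at 33.6% GC with a CpG ratio of 0.00, and Slco1a1, at 40.4% with 0.00, were in all 8 lists nevertheless.

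By rank, the higher promoters at 48 h included Abcc1, Slco5a1 and Abcb1b, and the lower ones Abcb4, Abcg5 and Abcg8. At 48 h, 17 of 61 members tested (27.9%) ranked higher than at 0 h, against 17.8% of all protein-coding genes, and 21 (34.4%) ranked lower, against 28.7%. At 72 h, 10 of 63 (15.9%) ranked higher and 19 (30.2%) lower, against 17.5% and 30.5% of all genes. At 96 h, 11 of 63 (17.5%) ranked higher and 17 (27%) lower, against 15.3% and 19.6%. Across all 6 PHx libraries, 5 of 61 (8.2%) ranked higher than both 0 h libraries and 7 (11.5%) lower, against 4.62% and 7.85%. By rank, shares at 72 h lay close to those of all genes and at 48 h both were above them, but by fold enrichment the 48 h shares of members, 23% higher and 21.3% lower, lay near the 21.2% and 20.3% of all genes. Members that share an interval are counted as separate genes, as in the count of all genes, and the 17 and 21 calls at 48 h came from 16 and 20 distinct intervals. Of the 48 h calls, 1 lower call was of a promoter with no interval in either 48 h list, that of Abca9, which ranked 101886 and 96483 at 0 h.

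At 72 h lower calls outnumbered higher ones by rank and by fold enrichment and the reverse held by percentile, while at 96 h lower calls were the more numerous by rank alone. By percentile, 17 members ranked higher and 19 lower at 48 h (all genes 21% and 22.5%), 22 and 8 after 72 h (34.9% and 12.7%, against 28.6% and 16.3%), 14 and 11 after 96 h (22.2% and 17.5%, against 23.3% and 12.3%), and 7 and 3 across all PHx libraries (11.5% and 4.92%, against 7.35% and 3.84%). By fold enrichment, 14 ranked higher and 13 lower at 48 h, 11 and 16 after 72 h (17.5% and 25.4%, against 17.2% and 25.8%), 14 and 8 after 96 h (22.2% and 12.7%, against 16% and 14.9%), and 3 and 2 across all PHx libraries (4.92% and 3.28%, against 4.38% and 4.67%). Called on all 3 scales were 13 higher and 11 lower at 48 h (21.3% and 18%, against 13.8% and 15.1% of all genes), 9 and 7 after 72 h (14.3% and 11.1%, against 12.9% and 13.4%), 10 and 5 after 96 h (15.9% and 7.94%, against 11.3% and 7.64%), and 3 and 1 across all PHx libraries (4.92% and 1.64%, against 2.7% and 1.87%). The median promoter of all genes shifted by 0.18, 0.19 and 0.08 on the log2 scale of rank at 48, 72 and 96 h, and by 0.03, -0.16 and -0.16 once ranks were divided by list length. The members' medians were 0.18, 0.09 and 0.17 by rank and 0.02, -0.26 and -0.07 by rank over list length.

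**Figure D2:**
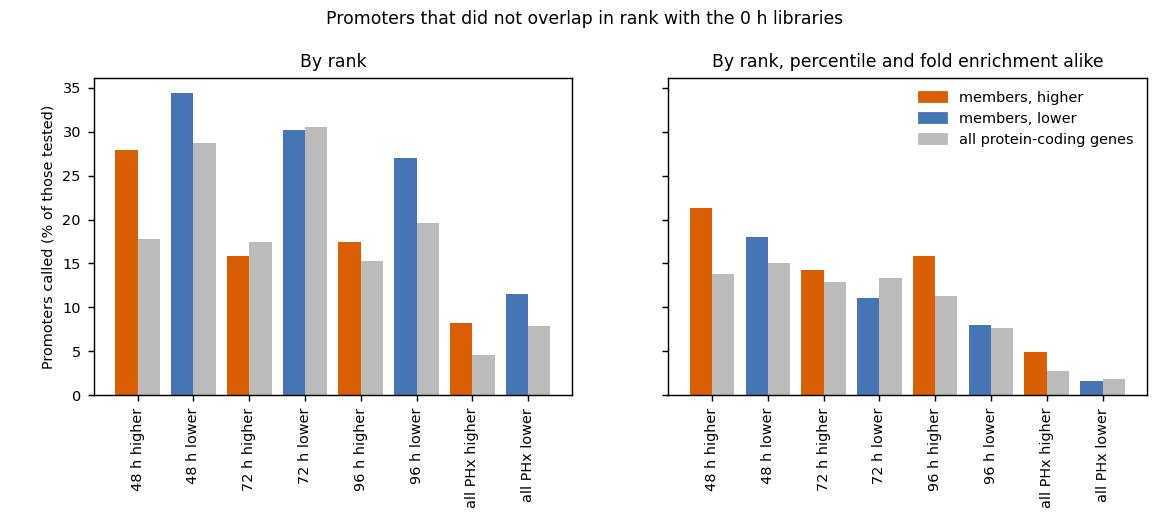
Share of tested promoters (y axis, %) called higher or lower than at 0 h at each time and across all 6 PHx libraries, for members (orange and blue bars) and for all protein-coding genes (grey bars), by rank (left) and on all 3 scales (right). At 48 h the orange bars stand at 27.9% and 21.3% beside grey bars of 17.8% and 13.8%, and at 72 h members and all genes lie close together.

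By rank and by percentile no promoter of the 8 hepatic uptake transporters was called higher than 0 h at any time, where 15.3% to 17.8% of all genes were by rank. By fold enrichment Slc22a5 was called higher at 48 h and Slc22a7 at 96 h. By rank 2 of the 8 were lower at 48 h, 1 at 72 h and 3 at 96 h, next to 28.7%, 30.5% and 19.6% of all genes. On all 3 scales only Slco2a1 at 48 h and Slco1a1 at 96 h were called lower, 1 of the 8 at each time, next to 15.1% and 7.64% of all genes. Slco2a1, a prostaglandin transporter, ranked 12429 and 8812 in undamaged liver and 15018 and 17788 after 48 h, a rank ratio of 1.56 (1.21 to 2.02 over the 4 pairs of libraries). Its ranks were 25127 and 12383 after 72 h and 11394 and 27507 after 96 h, which overlapped the 0 h libraries by rank. By fold enrichment Slco2a1 was called lower at every time, at 10.3 and 10.9 in undamaged liver and 6.34 to 9.4 in the 6 PHx libraries. Slco1a1, a bile acid and steroid conjugate carrier of adult mouse liver, ranked 74489 and 53982 in undamaged liver, 84201 and 64935 after 48 h, 68362 and 135809 after 72 h, and 95503 and 124035 after 96 h. Only the 96 h libraries lay wholly below 0 h (ratio 1.72, 1.28 to 2.3), and the interval measured is centred at position -914 from the nearest start.

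Slco1b2, the main organic anion carrier of mouse hepatocytes, ranked 45688 and 16206 in undamaged liver, 59970 and 30631 after 48 h, 35755 and 32436 after 72 h, and 48871 and 54376 after 96 h. The 2 undamaged libraries stood far apart, and the call at 96 h (ratio 1.89, 1.07 to 3.36) was lost by percentile. Slco2b1 ranked 28958 and 14773 in undamaged liver and 31137 and 37401 after 96 h, a call lost on both other scales. Slc22a7, a hepatic organic anion transporter, ranked 5342 and 4524 in undamaged liver, 5962 and 12504 after 48 h, 5574 and 19667 after 72 h, and 4746 and 6171 after 96 h. Its lower call at 48 h was lost by fold enrichment, where the log2 ratio of -0.04 turned the direction, and the call at 72 h was lost on both other scales. The promoters of Slco1a4 and of Slc22a5, the carnitine transporter, overlapped 0 h at every time by rank. Slco1a4 ranked between 32825 and 82833 and Slc22a5 between 1838 and 6443.

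For several uptake genes the strongest open site in the locus was not the promoter. Slco1a4, Slco2a1 and Slco2b1 had, in all 8 libraries, an interval outside every coding promoter window, within the gene or 10 kb of it, that ranked above the promoter interval. These distal ranks were 10119 to 16094 for Slco1a4, 2001 to 7989 for Slco2a1 and 5823 to 21878 for Slco2b1. Of the 56 members with a promoter interval in all lists, 8 (14.3%) had a stronger distal interval in every library and 33 (58.9%) had the stronger site at the promoter in every library, next to 10.8% and 55.8% of the 13220 protein-coding genes with such a promoter. The first held for 4 of the 8 uptake genes, all of which had a promoter interval in every list. Of the 9 organelle ABC genes and the 4 non-transporter ABC genes, 0 had a stronger distal interval in every library. Longer loci hold more intervals, and gene length was not adjusted for.

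**Figure D3:**
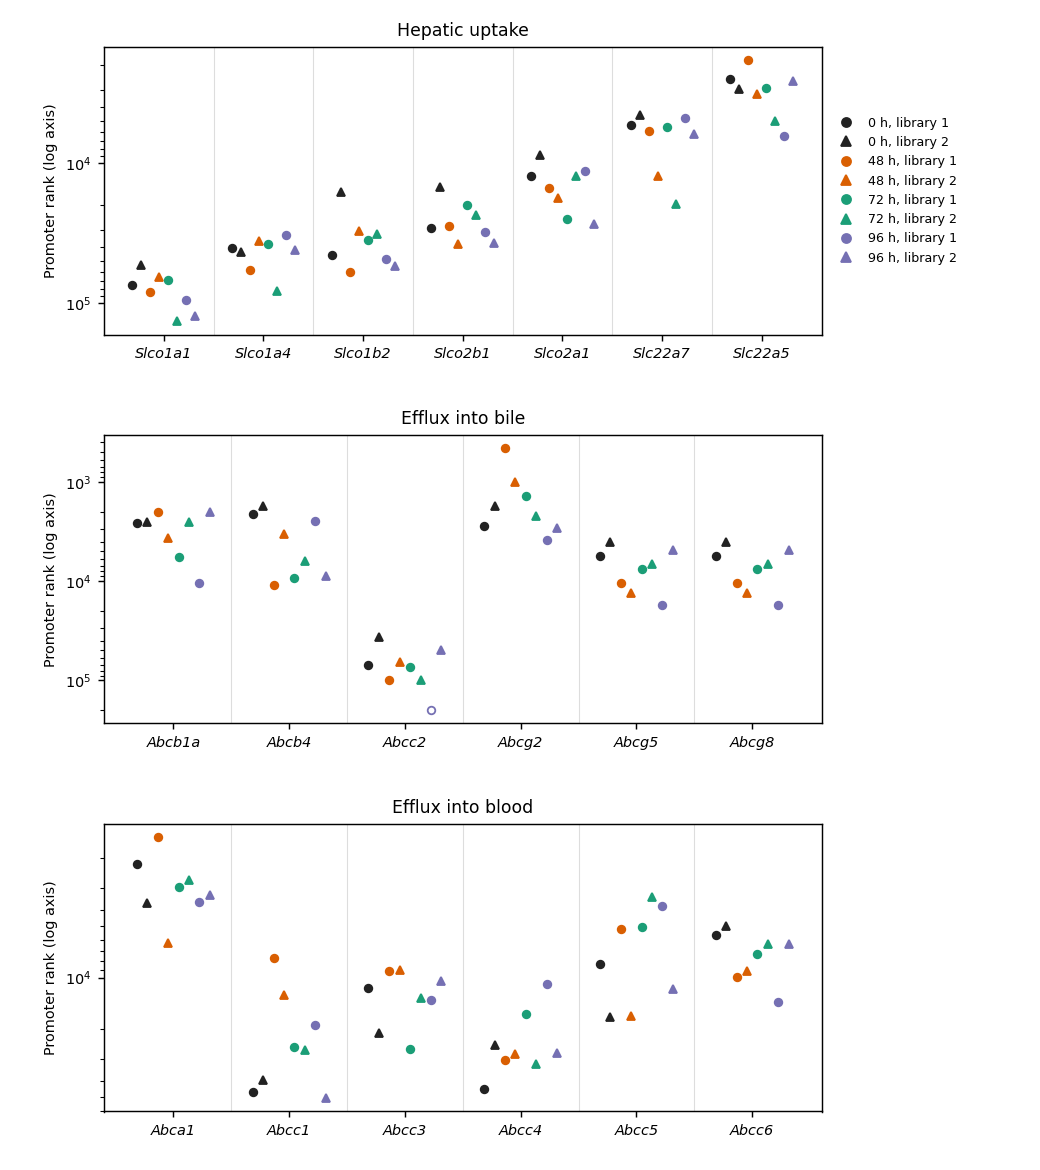
Promoter rank (y axis, log scale, strongest at the top) of the hepatic uptake, bile efflux and blood efflux transporters in each of the 8 libraries, with colour for time and symbol shape for library and an open symbol at the foot for no interval. Abcg2 at 48 h (459 and 1011) and Abcc1 at 48 h (7678 and 12643) stand above their 0 h points, and Abcb4 points after PHx (2456 to 11017) lie below theirs.

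Among the 6 transporters that face bile, Abcg2 and Abcb4 ranked on opposite sides of 0 h at 48 h. Abcg2, a pump for sulfate conjugates and many drugs, ranked 2772 and 1767 in undamaged liver, 459 and 1011 after 48 h, 1393 and 2189 after 72 h, and 3901 and 2909 after 96 h. Both 48 h libraries lay above 0 h (ratio 0.308, 0.166 to 0.572) on all 3 scales, and both 96 h libraries lay below (1.52, 1.05 to 2.21), a call lost by fold enrichment. The fold enrichment itself was 15.4 and 18.1 in undamaged liver and 14.9 and 15.9 after 48 h, so the 48 h call by fold holds for its rank within the list and not for the enrichment. The same limit touched other higher calls on all 3 scales at 48 h: of the 13, the enrichment itself was above both 0 h libraries for 5, overlapped them for 6 and was below both for 2 (Abca5 and Slc22a4), next to 28.8%, 51% and 20.2% of the higher calls of all genes. For the 11 lower calls it was below both, as for 99.9% of the lower calls of all genes.

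Abcb4, the floppase that delivers phosphatidylcholine to bile, ranked 2116 and 1740 in undamaged liver, 11017 and 3361 after 48 h, 9432 and 6283 after 72 h, and 2456 and 8931 after 96 h. All 6 PHx libraries ranked below both 0 h libraries (ratio 3.14, 1.16 to 6.33), on all 3 scales at 48 and 72 h but not by fold enrichment at 96 h. Its fold enrichment was 13.5 and 14.5 in undamaged liver, 6.01 and 9.83 after 48 h, 9.68 and 10.3 after 72 h, and 13.4 and 9.21 after 96 h. The neighbouring drug efflux pump gene Abcb1b went the other way by rank in the same 299 kb of chromosome 5. Abcb1b ranked 22577 and 27264 in undamaged liver, 8211 and 12917 after 48 h, 16831 and 8439 after 72 h, and 12296 and 19563 after 96 h. It was above 0 h in all 6 PHx libraries (ratio 0.5, 0.301 to 0.867), on all 3 scales at 48 and 72 h and not by fold enrichment at 96 h. The Abcb1b fold enrichment itself was 11.1 and 9.87 in undamaged liver and overlapped at 48 h, at 11.7 and 11.1. It was above both 0 h values at 72 h, at 12.7 and 14.2, and was 13.9 and 9.1 after 96 h. A distal interval at ranks 1129 to 11212 was ahead of the Abcb1b promoter in all 8 libraries. Abcb1a, which shares drug efflux with its paralogue Abcb1b in mice, ranked from 1999 to 10575 and overlapped 0 h at every time by rank, with a lower call by fold enrichment at 72 h.

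Abcg5 and Abcg8, which together export sterols, lie head to head and share 1 promoter interval, so they give 1 measurement. It ranked 5631 and 4019 in undamaged liver, 10396 and 13222 after 48 h, 7609 and 6731 after 72 h, and 17433 and 4843 after 96 h. The 48 h call (ratio 2.46, 1.85 to 3.29) held by percentile and was lost by fold enrichment, and the 72 h call was lost on both. Abcc2, which exports bilirubin glucuronide, had the weakest bile-side promoter, at 70817 and 36424 in undamaged liver, 100576 and 65772 after 48 h, 73143 and 98719 after 72 h, and no interval and 49200 at 96 h. Its lower call at 72 h was lost by percentile, and its strongest distal interval, at ranks 8003 to 35456, was ahead of the promoter in each of the 7 lists that held a promoter interval.

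Among the 6 transporters that return substrates to blood, Abcc1 had the widest gap of any member at 48 h. Abcc1, a glutathione conjugate pump that is low in resting hepatocytes, ranked 46563 and 39579 in undamaged liver, 7678 and 12643 after 48 h, 25493 and 26473 after 72 h, and 18912 and 50654 after 96 h. Both 48 h libraries (ratio 0.23, 0.165 to 0.319) and both 72 h libraries (0.605, 0.547 to 0.669) lay above 0 h on all 3 scales, and the 96 h libraries overlapped 0 h on each. Fold enrichment at the Abcc1 promoter was 7.39 and 7.6 in undamaged liver and 11.9 and 11.9 after 48 h.

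Abcc3, which exports glucuronides when bile flow fails, ranked 11472 and 21131 in undamaged liver and 9152 and 9053 after 48 h, higher on all 3 scales (ratio 0.585, 0.428 to 0.798), and overlapped 0 h at 72 and 96 h. Its fold enrichment overlapped at 48 h, at 10.4 and 7.14 in undamaged liver and 8.53 and 8.58 after 48 h. Abcc5, a cyclic nucleotide exporter, was higher at 72 h on all 3 scales, from 8308 and 16856 to 5086 and 3396, though its fold enrichment overlapped, at 15.6 and 12.2 in undamaged liver and 15.4 and 17.9 after 72 h. Abcc6 ranked lower by rank at every time, from 5655 and 5023 in undamaged liver to 9923 and 9100 after 48 h, but its fold enrichment order turned at 72 h, at 96 h and across all PHx libraries, so no direction is given. Abca1, which loads cholesterol onto apolipoprotein A-I, and Abcc4 overlapped 0 h at every time by rank, at 1506 to 6301 and 10936 to 44908, though Abca1 was called higher by fold enrichment at 72 h and Abcc4 by percentile at 72 and 96 h. The Abcc4 locus held a distal interval at ranks 907 to 2998 in all libraries.

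The 9 organelle ABC promoters were all open in every library and went in both directions. By rank, 2 of the 9 were higher and 5 lower at 48 h (all genes 17.8% and 28.7%), 1 and 4 after 72 h (17.5% and 30.5%), and 3 and 4 after 96 h (15.3% and 19.6%). On all 3 scales, 0 were higher and 2 lower at 48 h (all genes 13.8% and 15.1%), 1 and 2 after 72 h (12.9% and 13.4%), and 3 and 2 after 96 h (11.3% and 7.64%).

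Abcb9, a lysosomal peptide transporter, ranked 2011 and 952 in undamaged liver, 3135 and 8960 after 48 h, 3713 and 4848 after 72 h, and 3508 and 2913 after 96 h, lower in all 6 PHx libraries by rank and percentile and on all 3 scales at 72 h only. Abcb6, a porphyrin transporter, was lower on all 3 scales at 72 and 96 h, from 32734 and 27106 to 64023 and 47526 and then to 43498 and 40826. Abcb8, of the mitochondrial inner membrane, was higher on all 3 scales at 72 and 96 h, from 2034 and 2139 to 1658 and 1092 and then to 1972 and 945. Abcd2 was higher on all 3 scales at 96 h (35461 and 30257 to 23028 and 22065), with overlapping fold enrichment (7.28 and 7.77 to 9.18 and 7.34). The calls for Abcb10 and Abcd3 were lost on at least 1 other scale, and Abcd4 was not called by rank. The 4 Abce and Abcf promoters, for proteins of ribosome recycling and translation, had 0 higher calls by rank, and 2, 3 and 2 of the 4 were lower at 48, 72 and 96 h, read against the same shares of all genes. Of the lower calls only Abcf3 at 48 h (9280 and 5934 to 10749 and 16836) held on all 3 scales, as did 15.1% of all genes. The Abce1 interval also covers the start of Anapc10.

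Genes of mainly renal or intestinal transporters served as a set that hepatocytes are not known to use much. Of these 7, Slc22a6, Slc22a8, Slc22a12, Slc22a13 and Slc22a19 had no promoter interval in any list, and Slc22a2 had one in 4 lists at ranks of 77620 or weaker. Slco4c1, a renal steroid transporter, was the exception, with ranks of 1431 to 8586 in all 8 libraries and no call at any time. A locus without a promoter interval could still hold strong intervals: Slc22a13 and Slc22a14 share a distal interval at ranks 1365 to 7399.

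Across all 6 PHx libraries, Abca4, Abca5, Abcb1b, Abcc9 and Slco5a1 ranked higher, and 7 members, among them Abcb4, Abcb6, Abcb9, Abcc6, Abcc10 and Slc22a18, ranked lower, than both 0 h libraries. Only Abca4, Abcc9, Slco5a1 and Slc22a18 kept the call on all 3 scales. Abca4 and Abcc9 had no interval in 0 h library 2, which counts as last on every scale, so against that library their calls could not fail. Slco5a1, an organic anion transporting polypeptide of unsettled substrates, ranked 54220 and 58171 in undamaged liver, 17331 and 21915 after 48 h, 21455 and 9353 after 72 h, and 37014 and 17427 after 96 h (ratio 0.341, 0.161 to 0.683). Its promoter interval, with a fold enrichment of 6.26 and 5.07 in undamaged liver and 7.01 to 12.3 after PHx, had the widest gap of the 5. Slc22a18, an imprinted gene of the Cdkn1c domain, ranked 7196 and 5054 in undamaged liver, 12379 and 9518 after 48 h, 8564 and 10236 after 72 h, and 16603 and 17502 after 96 h (ratio 1.99, 1.19 to 3.46). Its interval is centred 1000 bases from the nearest start, at the edge of the window, and with windows of 500 bp the calls at 72 h, at 96 h and across all PHx libraries were lost. The ranks were then 15406 and 18967 in undamaged liver, 43550 and 32601 after 48 h, 14517 and 39958 after 72 h, and 16603 and 20079 after 96 h, lower at 48 h alone.

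Abca4, best known from the retina, and Abcc9, a regulatory subunit of ATP-sensitive potassium channels, had weak intervals. Abca4 ranked 124537 and was not listed at 0 h and ranked 50511 to 96816 after PHx, at an internal start of the gene. Abcc9 ranked 96533 and was not listed at 0 h and ranked 48123 to 93159 after PHx. Abca5, a lysosomal protein, ranked 12993 and 10610 in undamaged liver and 5409 to 10283 after PHx, on all 3 scales at 48 and 96 h, and its direction at 72 h turned by fold enrichment. Its enrichment at 48 h, 12.2 and 11.5, was below the 12.9 and 13.2 of undamaged liver. Abca2, a lysosomal sterol-related transporter, was lower on all 3 scales at 48 and 72 h, from 1040 and 698 in undamaged liver to 1232 and 2009 and then to 1727 and 2023, and overlapped 0 h at 96 h with 500 and 1825. Abca3 and Abca17 share an interval and give 1 measurement, which was higher at 48 h by rank and percentile only, and for Abca17 not with windows of 500 bp.

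**Figure D4:**
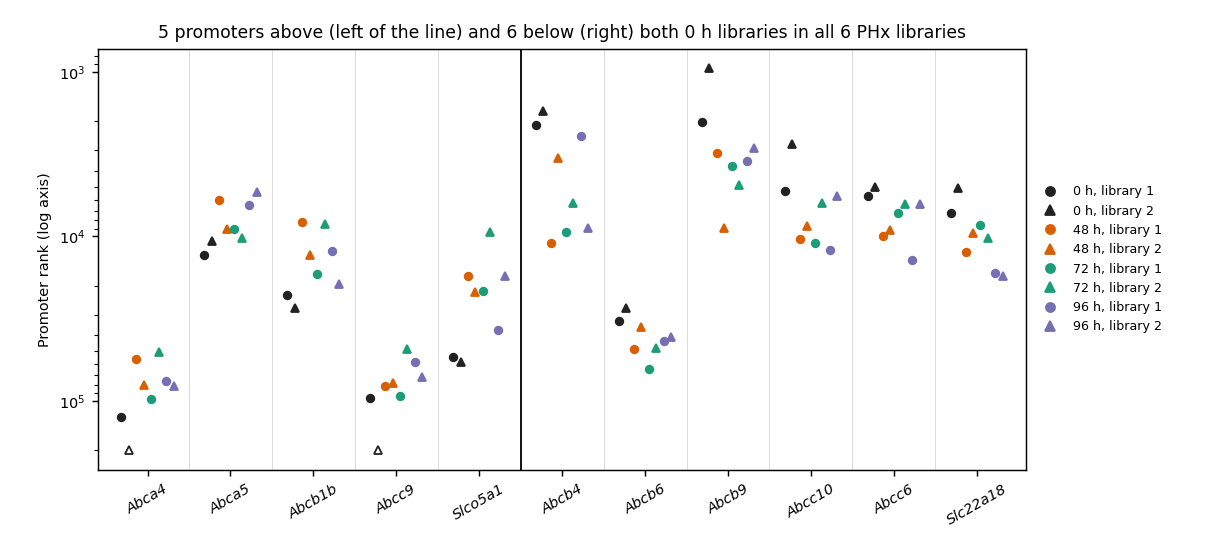
Promoter rank (y axis, log scale, strongest at the top) in the 8 libraries of 11 members that ranked above (left of the line) or below (right of it) both 0 h libraries in all 6 PHx libraries, with colour for time, shape for library and an open symbol at the foot for no interval. Slco5a1 runs from 54220 and 58171 in undamaged liver to between 9353 and 37014 after PHx, and Abcb4 from 2116 and 1740 to between 2456 and 11017.

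Open regions in and around the members were compared next. The 50000 strongest intervals of each library, merged over the 8 libraries, gave 369 regions at member loci (gene bodies with 10 kb on either side), of which 278 touched a member's gene body, 232 had their summit in an intron, 49 in an exon and 88 between genes. Member loci held 2.84 to 3.25 of these intervals per 100 kb in each library, next to 2.94 to 2.99 for all protein-coding loci. Density was lowest in the Slco loci (1.81 to 2.01) and the Abca loci (2.17 to 2.66), was 4.56 to 5.11 in the Abcb loci and reached 6.35 in the Abcd loci (4.08 to 6.35) and 6.21 in that of Abce1 (4.14 to 6.21). Of the 369 regions, 135 (36.6%) were present in all 8 libraries, next to 40.6% of regions at all protein-coding loci.

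A region counted as gained when both libraries of a time and neither 0 h library held it among their 50000 strongest intervals, and as lost in the reverse case. At 48 h, 10 regions at member loci were gained and 12 lost (against 2.65% and 3.36% of regions at all protein-coding loci). At 72 h, 6 were gained and 11 lost (against 2.71% and 2.65%), and at 96 h, 6 were gained and 8 lost (against 2.07% and 2.43%). As shares of the 369 the gained were 2.71%, 1.63% and 1.63% and the lost 3.25%, 2.98% and 2.17% at 48, 72 and 96 h. In all but 1 of these cases the full lists of the other group held an interval there in at least 1 library. The exception was a region lost at 48 h in an intron of Abcc3 (chr11:94389027-94389411), which ranked 49252 and 43016 in undamaged liver and had no interval in either 48 h list, and at 72 h it ranked 72076 and 68484.

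The region over the Slco5a1 promoter (chr1:12992076-12993047, exonic) was gained at all 3 times with the ranks given above. An intronic region of Slc22a23 (chr13:34306099-34306817) was lost at all 3 times, at 42913 and 44197 in undamaged liver and 53148 to 112901 after PHx. An intronic region of Abca1 (chr4:53117704-53117948, 42094 bases into the gene) was gained at 48 h, at 26309 and 17586 from 51629 and no interval, while another Abca1 intronic region (chr4:53115129-53115799) was lost, at 77011 and 64216 from 23539 and 28424. These neighbouring Abca1 sites changed in opposite directions, and neither counted as changed at 72 or 96 h. Upstream of Slc22a18, an intergenic region nearest to the Cdkn1c start (chr7:143466198-143466677) was gained at 48 and 72 h, at 29885 and 24166 and then 28639 and 26497 from 71726 and 53927, in the direction opposite to the Slc22a18 promoter interval. Lost at 48 h were an intronic region of Abca8a (chr11:110037732-110038553, 23627 and 17922 to 61005 and 50718) and a site at position -1653 from the Slco1c1 start (chr6:141522346-141523073, 29171 and 25889 to 50402 and 53931).

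**Figure D5:**
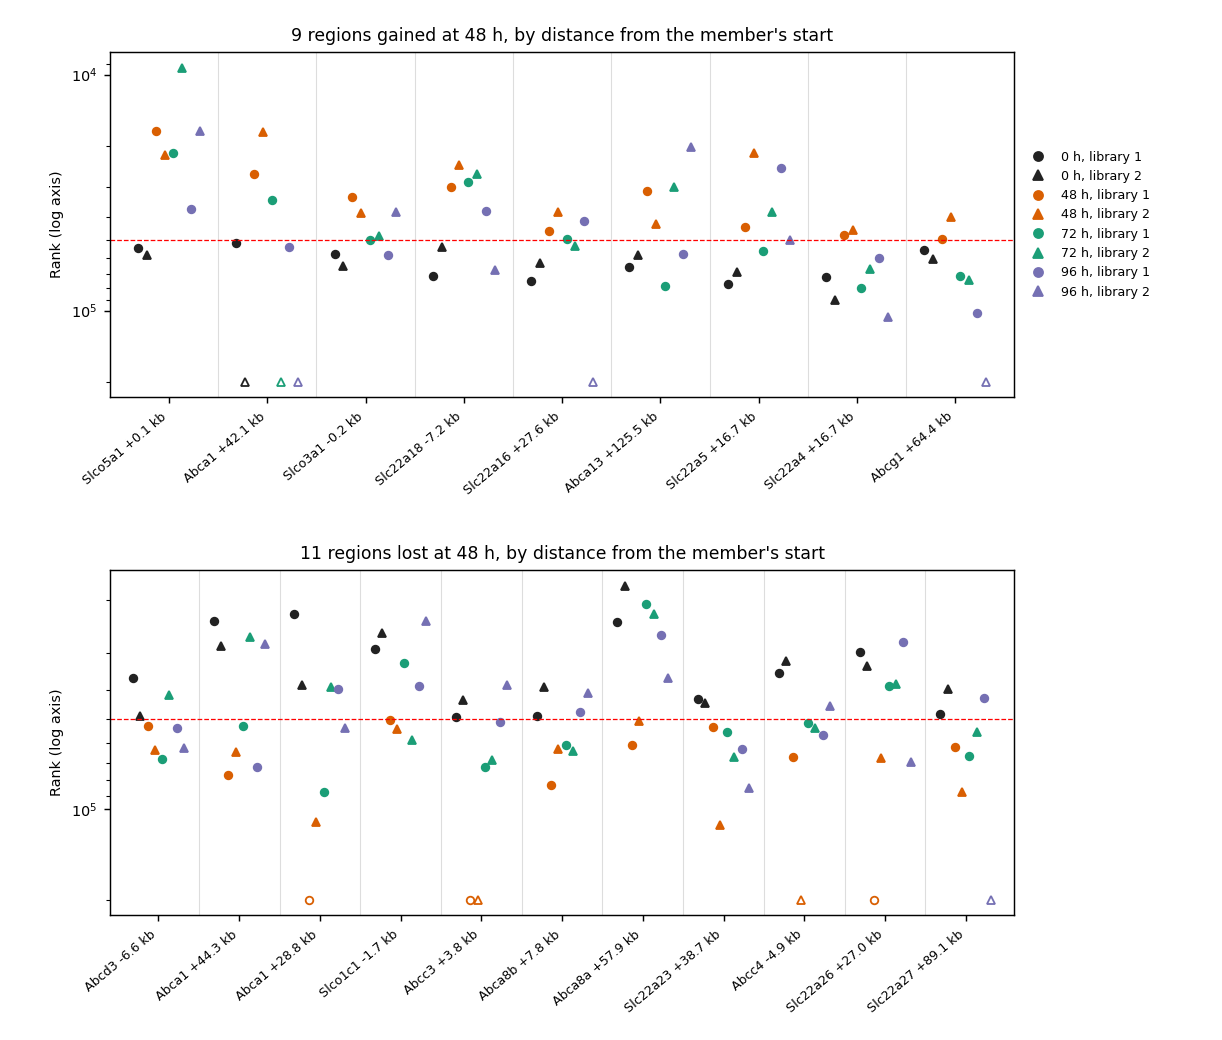
Ranks (y axis, log scale, strongest at the top) in the 8 libraries of 9 regions gained and 11 lost at 48 h at member loci, named by member and distance in kb from its nearest start, with an open symbol at the foot for no interval and the dashed line at rank 50000. The Slco5a1 promoter points after PHx lie above the line at all times, and several lost regions, such as that of Abca8a, are above it again at 72 and 96 h.

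At 72 h the losses included 2 intronic regions of Abcc2, at chr19:43812994-43813696 (35456 and 22226 in undamaged liver to 55166 and 64773) and chr19:43797163-43797617 (37088 and 36491 to 50679 and 58929), and a site at position -4895 from the Abcc4 start (chr14:118710993-118711283, 35024 and 31948 to 51672 and 53642). Gained at 72 and 96 h was an Abcb5 intronic region (chr12:118930473-118931133, 52096 and 84182 in undamaged liver to 34228 and 41483 after 72 h), whose promoter was in no list. At 96 h an intronic region of Abcb1a (chr5:8668019-8668638) was gained, from 83404 and 94973 to 42933 and 39810, and one of Slc22a22 (chr15:57408493-57408846), from 73190 and no interval to 34999 and 42606. Lost at 96 h were intronic regions of Abcc6 (chr7:46028697-46029194, 21841 and 23935 to 55522 and 64863) and Abcb4 (chr5:8902200-8902932, 27123 and 36198 to 51100 and 63702) and a region 628 bases upstream of the Abca6 start (chr11:110252110-110252770, 39985 and 35873 to 53437 and 73526). A second interval at the Abca6 start, at rank 42390, stayed among the 50000 strongest in 96 h library 2.

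For context, 13 regulators of transporter genes and 13 other hepatic transporters and their partners were counted in the same way. Of the 13 regulators, 1 ranked higher and 7 lower at 48 h (all genes 17.8% and 28.7%), 1 and 3 after 72 h (17.5% and 30.5%), and 3 and 3 after 96 h (15.3% and 19.6%). Nr1i3, the constitutive androstane receptor, was the only regulator below 0 h in all 6 PHx libraries, at 34408 and 42933 in undamaged liver, 54211 and 70670 after 48 h, 47730 and 60019 after 72 h, and 59049 and 43969 after 96 h. Of the other transporters and partners, 2 ranked higher and 3 lower at 48 h, 2 and 4 after 72 h, and 1 and 2 after 96 h, out of 11 tested and read against the same shares. Atp8b1, the canalicular phosphatidylserine flippase, ranked above 0 h in all 6 PHx libraries, at 955 and 794 in undamaged liver, 279 and 330 after 48 h, 556 and 571 after 72 h, and 661 and 642 after 96 h, while Abcb4, which moves phospholipid the other way across the same membrane, ranked below. Across all 6 PHx libraries, 0 of the 13 regulators were higher and 1 was lower. Of the 11 others tested, 1 was higher and 0 were lower. The shares of all genes were 4.62% higher and 7.85% lower. All these counts are by rank alone.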

How the data were processed

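Bulk ATAC-Seq was measured in 8 hepatocyte libraries, 2 for each of the 4 groups that the labels give (undamaged liver and PHx at 48, 72 or 96 h). The authors trimmed reads, aligned them to mm10 with Bowtie2, removed PCR duplicates and called peaks with MACS2 in the ENCODE ATAC-Seq pipeline, each library on its own (versions not given in the sources used here). The names of the deposited lists add a Tn5 shift, a p threshold, a cap on peak number and a blacklist filter. Per row the authors deposited a display score (not used), a fold enrichment over local background (a ratio), and the -log10 of the p-value and of the q-value. The lists hold no read counts, so depth is unknown and no count test could be made, and errors are given as ranges over library pairs.

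Rows were reduced to distinct intervals by highest -log10 p, ranked within each list and set against GENCODE M21 basic starts (41525 TSS of protein-coding genes) within 1 kb, with an overlap of at least 1 base. A rank ratio divides geometric mean ranks, and its range covers all library pairs. Alternatives were percentile, ranking by fold enrichment, 500 bp windows, q under 0.05, 25000 or all intervals, 50% coverage of a region, 2 kb flanks and leaving out each library. A call on all 3 scales was added after seeing the data. Named were the members of 6 role groups, leaving out some genes that count in every total but whose own values are not reported here, up to 3 members with the widest rank gap per promoter comparison and up to 3 regions per region comparison, and at most 4 genes of the other lists; Abca3, Abca17, Abca9, Slc22a14, the members of genomic groups, the Slc22a23 and Abcc3 regions and the members named as called across all PHx libraries were named after their values were seen. The members and lists were chosen with earlier results of these data known. Scripts ran in Python 3.11.15 with numpy 2.4.6, pandas 2.3.3 and matplotlib 3.10.9 and were tested on simulated data. No column of per-sample values was left unmapped. Sequences are from RefSeq on GRCm38.p6.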

Additional observations from a re-analysis of the deposited data

Results flagged for a closer look

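Promoters of Abcg2 and Abcb10 ranked on opposite sides of both 0 h libraries at different times, in both libraries of each time. The difference between times was not tested, and the times share their 0 h libraries. Abcg2 had a rank ratio to 0 h of 0.308 at 48 h and 1.52 at 96 h. Abcb10, a mitochondrial transporter of the heme pathway, had ratios of 0.794 at 48 h and 1.61 at 96 h. Of the calls behind these ratios, that of Abcg2 at 48 h held on all 3 scales. The calls for Abcg2 at 96 h and for Abcb10 at 48 and 96 h were lost on at least 1 scale.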

How the results depend on the processing

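Of 292 rank ratios of the called promoters reported here, recomputed under 4 alternatives (percentile, fold enrichment, 500 bp windows and q under 0.05), 287 kept their direction and 5 turned. Only promoters already called entered, and the q filter and narrower windows often keep the same interval, so a kept direction is a weak check. All 5 turns were by fold enrichment. By fold enrichment, in log2, Abca5 gave 0.03 at 72 h, Abcc6 -0.12 at 72 h, -0.01 at 96 h and -0.03 across all PHx libraries, and Slc22a7 -0.04 at 48 h. Counts of member promoters moved by over 1.5 times by percentile to 22 higher and 8 lower at 72 h, 11 lower at 96 h and 3 lower across all PHx libraries, and by fold enrichment to 13 lower at 48 h, 8 lower at 96 h, and 3 higher and 2 lower across all PHx libraries. The 25000 strongest intervals, with 193 member regions, gave 9 gained and 15 lost at 48 h (4.66% and 7.77%, all loci 3.48% and 4.04%), 8 and 7 after 72 h (4.15% and 3.63%, against 3.21% and 3.23%), and 2 and 10 after 96 h (1.04% and 5.18%, against 2.33% and 2.71%). All deposited intervals, with 1424 member regions, gave 16 gained and 44 lost at 48 h (1.12% and 3.09%, all loci 1.12% and 1.83%), 31 and 21 after 72 h (2.18% and 1.47%, against 2.87% and 0.761%), and 26 and 19 after 96 h (1.83% and 1.33%, against 1.59% and 1.05%). Requiring 50% of a region to be covered gave 20 lost at 48 h, 14 gained at 72 h and 10 gained at 96 h (all loci 4.98%, 3.82% and 2.17%). Leaving out 1 library can only add calls, since fewer libraries have to be ordered. Higher promoters then numbered 20 to 26 after 48 h (all genes 26.7% to 34.8%), 18 to 22 after 72 h (26.9% to 32.9%), 15 to 25 after 96 h (26.1% to 38.2%) and 5 to 9 across all PHx libraries (5.33% to 13.8%), and lower ones 24 to 29 after 48 h (40.2% to 45.8%), 25 to 33 after 72 h (43.2% to 46.7%), 24 to 30 after 96 h (32.6% to 42%) and 7 to 22 across all PHx libraries (8.89% to 23.4%). Gained regions numbered 20 to 30, 17 to 22 and 14 to 27 and lost regions 21 to 49, 21 to 42 and 20 to 35 at 48, 72 and 96 h, with all loci at 4.5% to 7.8%, 4.67% to 7.59% and 3.82% to 7.07% gained and 6.22% to 8.44%, 5.37% to 7.75% and 5.1% to 7.27% lost. The highest lost counts, 49, 42 and 35, and the 22 lower promoters all came without 0 h library 1, where all loci lost 8.44%, 7.75% and 7.27% and 23.4% of all promoters were lower; without 96 h library 2 the last count was 12 (13.9%). No paired analysis was possible because no result comes from a test and the labels do not say that replicate numbers pair animals across times.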
